A study of Mus musculus with 12 samples.

Results

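The nuclear genes of respiratory complexes II, III, IV and V were described in dorsal root ganglia (DRG) of mice kept in environmental enrichment or in standard housing. They were taken by symbol: Sdha, Sdhb, Sdhc, Sdhd and Cyc1, and every name that begins with Uqcr, Cox4i, Cox5, Cox6, Cox7, Cox8 or Atp5. The rule found 50 of the 44345 gene names in the count tables, with 4 in complex II, 9 in complex III, 18 in complex IV and 19 in complex V. Of the 19 names in complex V, Atp5l-ps1 and Atp5l2 are annotated as processed pseudogenes, and Atp5s and Atp5sl share the prefix without being subunits of the enzyme.

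The mice were C57BL/6, 5 to 8 weeks old, housed for 10 days in environmental enrichment (EE), a cage with more to explore than the usual one, or in standard housing (SH), and sciatic ganglia of levels L4 to L6 were taken. The 4 groups, of 3 libraries each, were whole ganglia of EE mice, whole ganglia of SH mice, laser-captured neurons of EE mice and laser-captured neurons of SH mice. The deposited names of the whole-ganglion libraries carry the word Sham, which no label explains, and those of the captured libraries do not. A whole-ganglion library pooled 2 mice and used a poly(A) mRNA kit, and a captured library drew neurons of at least 30 µm in diameter from 3 mice and used a ribosomal RNA depletion kit. No label states that the libraries within a group held different mice. The p-values therefore rest on the variation among these libraries alone, which may be technical. Reads in genes numbered 11343579 to 17036481 per whole-ganglion library and 19296230 to 29434351 per captured library. In captured neurons, EE replicate 1 ran alone in lane 1 and SH replicate 2 alone in lane 2, and the other libraries (EE replicates 2 and 3, SH replicates 1 and 3) shared lane 3. Lane 3 is therefore given beside all 6 captured libraries. The 15 markers of large-diameter neurons summed to 10149 to 16507 CPM (read counts scaled to the size of the library) in captured libraries and to 14765 to 16951 CPM in whole-ganglion libraries. Skeletal muscle genes stood out in captured SH replicate 2, where 16 of them summed to 915 CPM, against 6.83 to 19.2 CPM in the other captured libraries.

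Complex II, succinate dehydrogenase, passes electrons from succinate to ubiquinone and is encoded by nuclear genes alone. Complex III passes them on to cytochrome c, complex IV (cytochrome c oxidase) gives them to oxygen, and complex V (ATP synthase) makes ATP with the proton gradient that complexes I, III and IV build up. Complexes III, IV and V combine nuclear subunits with subunits encoded in mitochondrial DNA, and sensory neurons with long myelinated axons are known for a high demand for ATP.

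The promoters of these genes are known targets of the transcription factors NRF1 and GABP (NRF2), the second of which binds ETS motifs. Windows of 250 bases upstream of the start (RefSeq, GRCm38.p6, the assembly of mm10) were found for 34 of the 50 genes and searched on both strands for the NRF1 motif (GCGCA and GCGC with any 1 base between them), CCGGAAG (ETS) and the YY1 motif (AANATGGCG), none of which overlapped another in the windows printed. The NRF1 letters occurred in 6 of the 34 windows (17.6%), against 3.86% of all 27025 windows, and the ETS letters in 8 (23.5%), against 7.05%. The YY1 letters occurred in none of the 34 and in 1.12% of all windows. For Atp5g2, Atp5h, Cox5a, Cox7b2 and Sdhd, the bases shortly after the window were not found in a transcript of the gene. These windows may therefore not lie at its start. Among them, Atp5g2, Atp5h and Sdhd carried the NRF1 letters, and Atp5h and Sdhd the ETS letters. Windows of 4 genes are printed because their transcripts stand at different places in the results: Sdha (complex II) had nearly the same CPM in captured neurons as in whole ganglia, Uqcrh (complex III) had the highest level per length of its complex, Cox6a1 (complex IV) was among the genes with the lowest share in captured neurons, and Cox7b (complex IV) had the smallest p with housing in captured neurons. They lie at chr13:74350241-74350490 on the minus strand, chr4:116075071-116075320 on the minus strand, chr5:115348959-115349208 on the minus strand and chrX:106015450-106015699 on the plus strand. Capitals mark the matched letters, which were 3 NRF1 matches in Sdha, 1 ETS match in Uqcrh (on the other strand), 2 NRF1 matches and 1 ETS match in Cox6a1 (the ETS match on the other strand) and none in Cox7b.
Sdha: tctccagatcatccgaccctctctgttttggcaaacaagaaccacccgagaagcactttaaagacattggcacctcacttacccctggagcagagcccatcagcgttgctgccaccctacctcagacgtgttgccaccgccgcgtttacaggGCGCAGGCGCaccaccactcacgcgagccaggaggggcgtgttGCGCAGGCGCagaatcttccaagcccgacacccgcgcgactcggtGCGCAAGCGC
Uqcrh: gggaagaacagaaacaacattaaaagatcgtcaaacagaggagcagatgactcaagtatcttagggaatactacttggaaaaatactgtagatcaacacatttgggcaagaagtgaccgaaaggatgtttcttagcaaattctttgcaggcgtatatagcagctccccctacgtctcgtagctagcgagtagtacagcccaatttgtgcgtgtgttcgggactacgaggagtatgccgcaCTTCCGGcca
Cox6a1: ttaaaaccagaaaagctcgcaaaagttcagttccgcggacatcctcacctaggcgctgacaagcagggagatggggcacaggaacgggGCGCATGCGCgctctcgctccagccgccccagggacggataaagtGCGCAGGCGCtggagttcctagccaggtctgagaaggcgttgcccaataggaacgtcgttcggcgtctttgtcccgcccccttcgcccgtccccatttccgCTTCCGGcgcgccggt
Cox7b: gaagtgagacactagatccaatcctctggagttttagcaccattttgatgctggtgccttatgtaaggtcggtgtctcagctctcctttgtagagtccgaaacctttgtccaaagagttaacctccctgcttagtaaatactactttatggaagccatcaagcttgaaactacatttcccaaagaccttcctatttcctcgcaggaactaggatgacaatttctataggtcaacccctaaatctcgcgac
A match is a description of the letters and was not tied to binding, and its relation to the housing difference was not tested.

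Levels per length, which allow genes to be compared, came from the authors' FPKM values of whole ganglia (fragments scaled to gene length and sequencing depth). In complex II the highest was Sdhd, a membrane anchor subunit, at 90.3 ± 7.46 FPKM in EE and 93.2 ± 1.68 FPKM in SH (SD, n = 3 each). In complex III it was Uqcrh, the hinge protein at cytochrome c1, at 160 ± 13.6 FPKM in EE and 155 ± 1.52 FPKM in SH. In complex IV it was Cox6b1, a small subunit that joins the monomers of the enzyme, at 464 ± 45.2 FPKM in EE and 465 ± 10.2 FPKM in SH. In complex V it was Atp5l, subunit g of the membrane part, at 293 ± 13.6 FPKM in EE and 280.2 ± 20.02 FPKM in SH. For each of these 4 genes the EE and SH levels lay within the spread between libraries. The order within a complex depended on the length used. The authors' length of Atp5b, the catalytic beta subunit, was 4260 bases and its longest coding transcript 1916 bases. Per kilobase of that transcript, Atp5b was the highest of complex V, at 604 CPM per kilobase in SH. By the same measure, Sdhb (118) and Sdha (104) stood above Sdhd (97.7) in complex II. In complex IV, Cox6a1 (443) and Cox8a (439) stood above Cox6b1 (381), while Uqcrh (352) stayed the highest of complex III. Reads of 6 of the 50 genes could also match a near copy, since over 50% of the transcript was found at 97% identity or more in other genes: Atp5h, Atp5l, Atp5o, Uqcrb, Atp5l-ps1 and Atp5l2. The levels of these 6 genes are uncertain for that reason.

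Whole ganglia showed no gene of complexes II to V past the threshold with housing. The filter on low counts left 44 of the 50 genes to be tested, and Atp5l-ps1, Atp5l2, Cox6a2, Cox7b2, Cox8b and Cox8c were too low. At an adjusted p of 0.05 (edgeR quasi-likelihood test, Benjamini-Hochberg adjusted) 0 of the 44 passed, where 1 of 15845 genes passed (0.00631%). At an unadjusted p under 0.05 there was 1 of the 44, Atp5d, lower in EE, against 2.9% of all genes tested (1.55% lower), and DESeq2 and limma-voom also called 0 of the 44. With the shared lane of each EE and SH pair as a block, 0 of the 44 passed as well, where 0.202% of all genes tested passed. The median log2 fold change of the 44 was 0.0081 (all genes tested 0.0028), and 26 of them were positive, against 51.3% of all genes tested. The number positive rested on single libraries: it was 38 of 46 tested without EE replicate 1 and 14 of 45 tested without EE replicate 2. By complex the median was −0.01 for the 4 genes of complex II, 0.03 for 9 of complex III, 0.01 for 14 of complex IV and −0.02 for 17 of complex V. The summed level of the 50 genes was 7410, 8436 and 8013 CPM in the EE libraries, against 7868, 8088 and 8060 CPM in the SH libraries. The EE libraries thus spread to both sides of the SH libraries, EE replicate 1 being the lowest and EE replicate 2 the highest of the 6. In these values, as in those of captured neurons, fewer cells of a type cannot be told apart from less RNA per cell.

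The genes with the smallest p of each complex in whole ganglia are given for every library. Sdhc, the other membrane anchor of complex II, had 73.3, 83.9 and 78.6 CPM in EE libraries, against 84.2, 82.1 and 81.8 CPM in SH libraries (log2 fold change −0.07, SE 0.07). Sdhd had 112, 127 and 114 CPM in EE, against 123, 118 and 119 CPM in SH (−0.03, SE 0.07). In both genes EE replicate 1 was the lowest of the 6 libraries and the groups overlapped.

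In complex III, Uqcrb, a subunit near the ubiquinone pocket, had 84.1, 92.7 and 94.7 CPM in EE libraries, against 86.7, 83.9 and 84.6 CPM in SH libraries (log2 fold change 0.09, SE 0.07). Uqcr10, a small membrane subunit, had 78.4, 86.3 and 77.0 CPM in EE, against 73.5, 79.9 and 74.3 CPM in SH (0.09, SE 0.07). The groups overlapped in both genes.

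In complex IV, Cox7c had 84.6, 118 and 90.5 CPM in EE libraries, against 105, 110 and 92.0 CPM in SH libraries (log2 fold change −0.07, SE 0.11). Cox7a1, the heart and skeletal muscle isoform of subunit VIIa, was low at 1.80, 3.22 and 2.28 CPM in EE, against 1.24, 1.88 and 2.55 CPM in SH (0.39, SE 0.29). The 3 libraries highest in Cox7a1 were also the 3 highest in muscle genes, at 272 (EE replicate 2), 210 (SH replicate 3) and 97.4 CPM (EE replicate 3) against 9.19 to 24.7 CPM in the others, and the part of muscle RNA in this value was not tested.

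In complex V, Atp5d, the delta subunit of the central stalk, had 126, 149 and 126 CPM in EE libraries, against 141, 166 and 158 CPM in SH libraries. Its log2 fold change was −0.22 (SE 0.08), with an unadjusted p of 0.0226 and an adjusted p of 1.00 (edgeR quasi-likelihood test, Benjamini-Hochberg adjusted). EE replicate 2 lay above SH replicate 1, so the groups overlapped, although within each lane the EE library was the lower. Atp5g3, which encodes the c subunit of the rotor ring, had 254, 296 and 289 CPM in EE, against 300, 282 and 308 CPM in SH (−0.08, SE 0.07). The only gene whose groups did not overlap was Atp5sl, higher in EE by a log2 fold change of 0.06, where 3.19% of all genes tested had every EE library above every SH library and 4.29% had every one below.

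**Figure D1:**
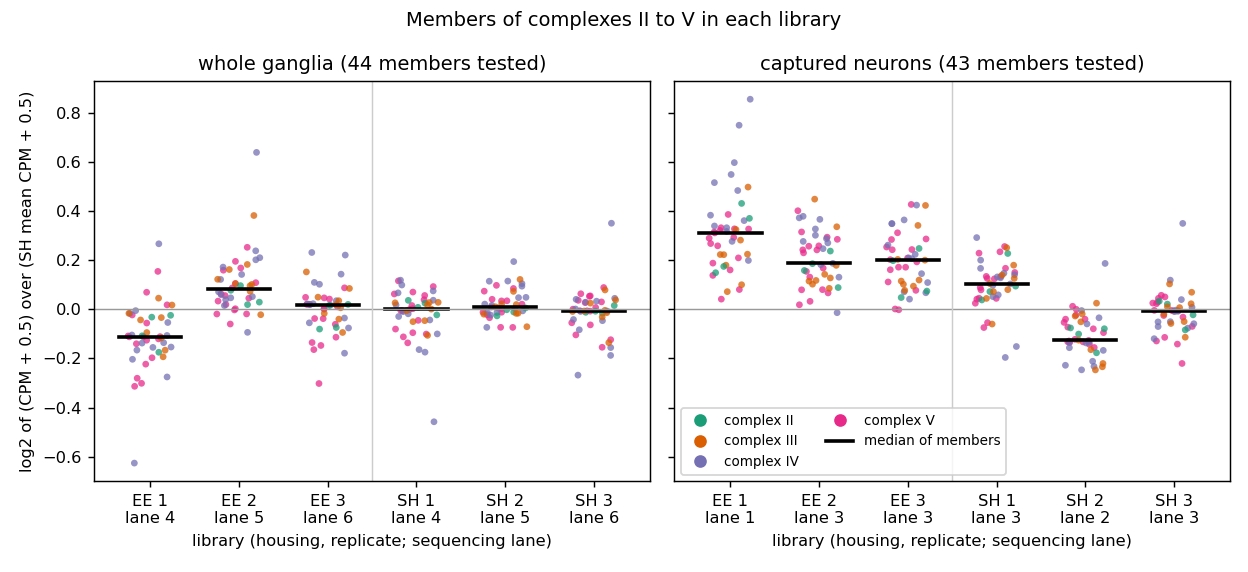
Each point is 1 gene of complexes II to V in 1 library, as the log2 ratio of its CPM to the mean CPM of the SH libraries of the same preparation, with 0.5 added to both. Black bars are medians over the genes tested, EE libraries stand left of SH libraries, and lanes are given under each library. In captured neurons the EE medians lie above those of all SH libraries, while in whole ganglia EE replicate 1 lies below and EE replicate 2 above the SH libraries.

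In captured neurons every gene of complexes II to V that was tested had a positive log2 fold change, but none passed the threshold over all genes with all 6 libraries. The filter left 43 of the 50 genes, the 44 of whole ganglia without Cox6b2. By the edgeR quasi-likelihood test, Benjamini-Hochberg adjusted, 0 of the 43 passed, where 3 of 16186 genes passed (0.0185%). Those with an unadjusted p under 0.05 numbered 23, all higher in EE, against 7.3% of all genes tested that were higher and 8.62% that were lower. In the same comparison 23 of the 43 had every EE library above every SH library, where 10.2% of all genes tested did, and none had every EE library below, where 10.9% of all genes tested did. Genes that move together over the same 6 libraries are not independent of each other, and these counts carry no p. The median log2 fold change of the 43 was 0.25 (all genes tested −0.00059), and positive values made up 49.9% of all genes tested. Other settings moved the number of calls: DESeq2 called 11 of the 43, all higher in EE, and edgeR without the filter on low counts called 14. The shares of all genes called under these settings are not given here, so the counts are not read as a result about these genes.

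The summed level of the 50 genes in captured neurons was 5125, 4791 and 4754 CPM in the EE libraries, against 4448, 3807 and 4111 CPM in the SH libraries. The 3 EE libraries lay above the 3 SH libraries, with means of 4890 ± 204 CPM in EE and 4122 ± 321 CPM in SH (SD, n = 3 each) and a ratio of 1.19. The highest library, EE replicate 1, was the one in lane 1, and the lowest, SH replicate 2, was the one in lane 2. Within lane 3 the means were 4772 CPM in EE and 4280 CPM in SH, a ratio of 1.12. Reads outside any annotated feature made up 28.0, 33.8 and 30.9% in the captured EE libraries and 32.1, 36.3 and 34.5% in the captured SH libraries. EE replicate 1 thus had the lowest share and SH replicate 2 the highest, and the part of this in the summed level was not tested.

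Each complex summed to more CPM in the captured EE libraries than in the captured SH libraries. Complex IV summed to 1332, 1225 and 1161 CPM in EE libraries, against 1117, 891 and 983 CPM in SH libraries, a ratio of 1.24 (1.14 in lane 3). Complex V summed to 2598, 2427 and 2450 CPM in EE, against 2254, 1965 and 2114 CPM in SH, a ratio of 1.18 (1.12 in lane 3). Complex III summed to 589, 559 and 558 CPM in EE, against 531, 465 and 493 CPM in SH, a ratio of 1.15 (1.09 in lane 3). The 4 genes of complex II summed to 606, 579 and 585 CPM in EE, against 546, 485 and 521 CPM in SH, a ratio of 1.14 (1.09 in lane 3). In each complex all 3 EE libraries lay above all 3 SH libraries, and the difference between complexes was not tested. The median log2 fold change was 0.18 for complex II, 0.19 for complex III, 0.34 for complex IV and 0.22 for complex V, over 4, 9, 13 and 17 genes tested.

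**Figure D2:**
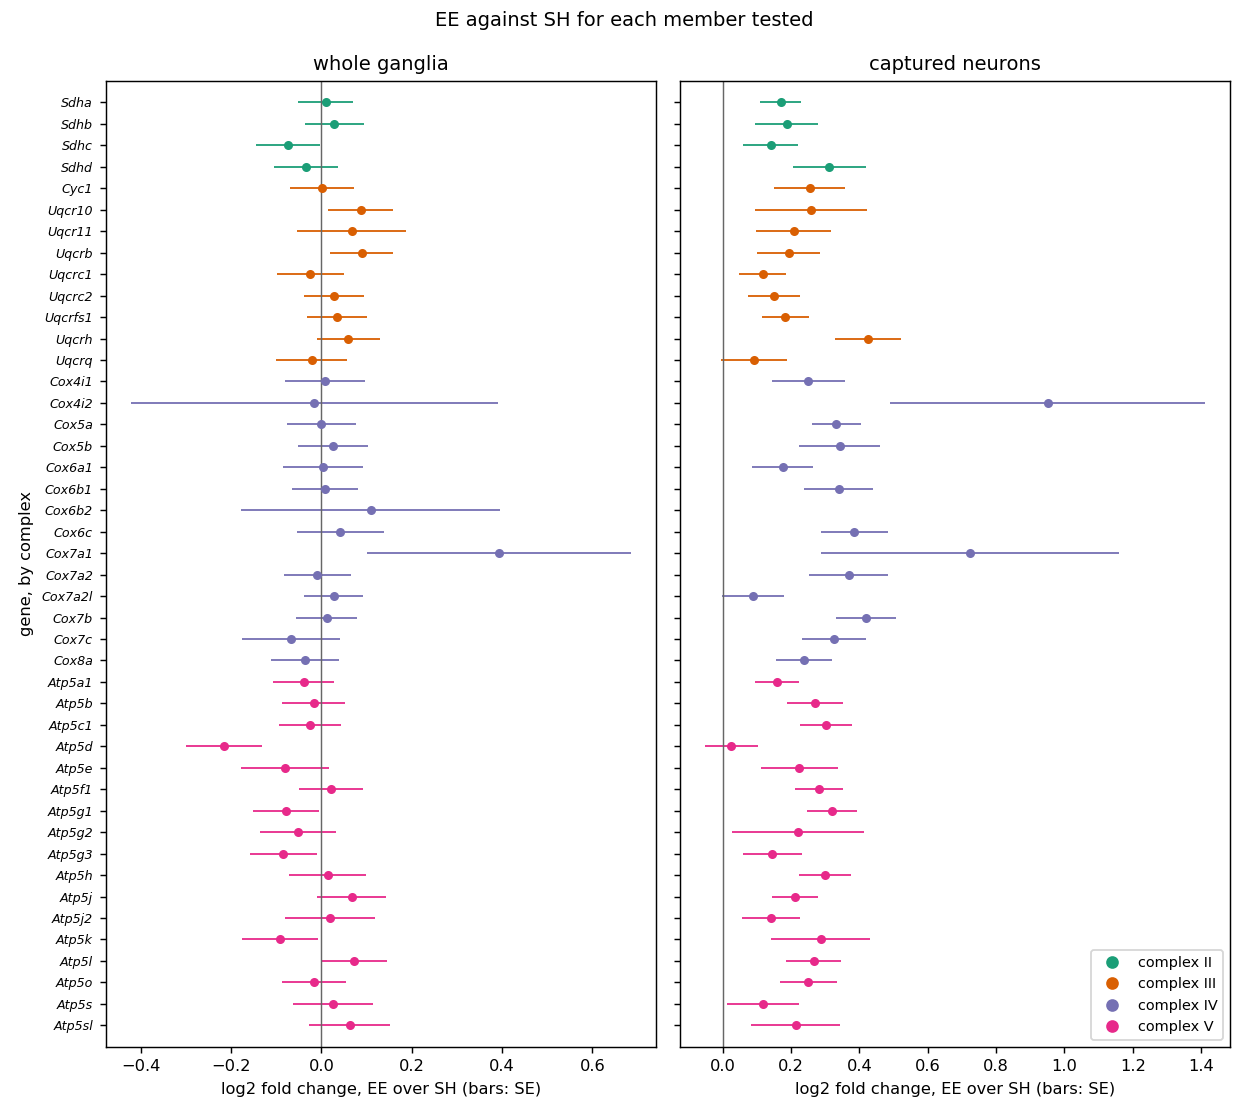
Log2 fold change of EE over SH for each gene tested, with bars of 1 SE, by complex, in whole ganglia on the left and captured neurons on the right, each with its own axis. The 44 values of whole ganglia lie on both sides of 0, and the 43 values of captured neurons all lie above 0.

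In complex II, Sdha, the flavoprotein that holds the catalytic site, had 366, 368 and 379 CPM in captured EE libraries, against 339, 313 and 338 CPM in captured SH libraries. The EE libraries averaged 371 ± 6.75 CPM and the SH libraries 330 ± 14.6 CPM (SD, n = 3 each), a log2 fold change of 0.17 (SE 0.06). Sdhd had 94.5, 82.5 and 83.1 CPM in EE, against 82.0, 61.8 and 65.9 CPM in SH (0.31, SE 0.11). Neither passed, and SH replicate 1 came within 1 CPM of the lowest EE library in Sdhd. Sdhb, the iron-sulfur subunit, and Sdhc had log2 fold changes of 0.19 and 0.14, and their groups overlapped.

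In complex III, Uqcrh had 76.8, 68.6 and 72.9 CPM in captured EE libraries, against 59.2, 46.4 and 56.9 CPM in captured SH libraries. Its log2 fold change was 0.43 (SE 0.10), with an adjusted p of 0.124 (edgeR quasi-likelihood test, Benjamini-Hochberg adjusted). Uqcrfs1, the Rieske iron-sulfur protein that carries electrons to cytochrome c1, had 72.2, 66.9 and 71.2 CPM in EE, against 63.7, 60.6 and 60.9 CPM in SH (0.18, SE 0.07). The EE libraries lay above the SH libraries in both genes. The other 7 genes had log2 fold changes of 0.09 (Uqcrq) to 0.26 (Uqcr10), with 0.12 and 0.15 for the core proteins Uqcrc1 and Uqcrc2 and 0.25 for Cyc1, which encodes cytochrome c1.

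In complex IV, Cox7b, a small membrane subunit, had 189, 172 and 168 CPM in captured EE libraries, against 148, 120 and 127 CPM in captured SH libraries. The EE libraries averaged 176 ± 11.1 CPM and the SH libraries 132 ± 14.6 CPM (SD, n = 3 each). That is a log2 fold change of 0.42 (SE 0.09) and a fold of 1.34, with an adjusted p of 0.0993 (edgeR quasi-likelihood test, Benjamini-Hochberg adjusted), the smallest of the 43 genes. Cox5a, the nuclear subunit Va on the matrix side, had 44.5, 44.0 and 46.0 CPM in EE, against 36.9, 35.5 and 34.3 CPM in SH (log2 fold change 0.33, SE 0.07, adjusted p = 0.119 in the same test). All 3 EE libraries of both genes exceeded all 3 SH libraries, and in Cox5a the spread within a group was small beside the gap. Cox6b1, the highest of complex IV by the authors' FPKM in whole ganglia, had 163, 143 and 136 CPM in EE, against 129, 101 and 120 CPM in SH (0.34, SE 0.10). The log2 fold change was 0.39 for Cox6c, 0.37 for Cox7a2, 0.34 for Cox5b and 0.33 for Cox7c. Cox7a2l, which encodes a factor that joins complexes III and IV into supercomplexes, was the lowest of complex IV at 0.09 (SE 0.09).

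In complex V, Atp5g1, one of the genes for the c subunit of the rotor ring, had 53.7, 58.1 and 52.4 CPM in captured EE libraries, against 44.6, 42.2 and 44.6 CPM in captured SH libraries. The log2 fold change was 0.32 (SE 0.07), with an adjusted p of 0.127 (edgeR quasi-likelihood test, Benjamini-Hochberg adjusted). Atp5f1, subunit b of the peripheral stalk, had 336, 320 and 329 CPM in EE, against 287, 247 and 276 CPM in SH (0.28, SE 0.07). The groups of both genes did not overlap. Atp5f1 shares exon sequence on the opposite strand with Wdr77, and the counting strand is not given in the sources used here. How reads of the shared stretch were counted is therefore not known. The same limit holds for all 13 of the 50 genes whose exons overlap another gene. Among them are Atp5a1, Atp5d, Atp5l, Atp5o, Cox4i1, Cox5a, Cox6c and Uqcrb. Atp5l had 55.1, 52.1 and 52.5 CPM in EE, against 46.8, 40.3 and 45.7 CPM in SH (0.27, SE 0.08). The F1 genes Atp5b (0.27), Atp5c1 (0.30) and Atp5a1 (0.16) were separated between the groups too, and Atp5d was at 0.03 (SE 0.08), the smallest of the 43.

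**Figure D3:**
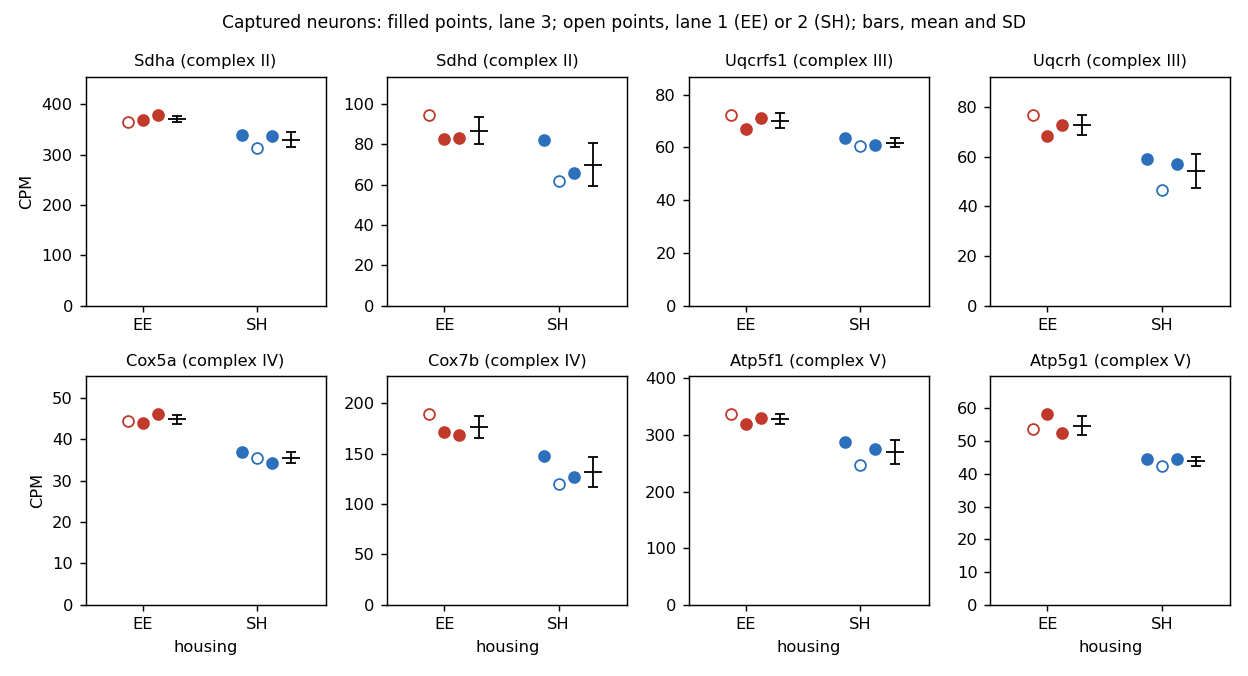
CPM of the 8 genes with the smallest p of each complex in captured neurons, EE on the left and SH on the right of each panel. Filled points are libraries of lane 3, open points the libraries of lane 1 (EE) and lane 2 (SH), and bars are mean and SD of 3 libraries. In all 8 panels the EE points lie above the SH points.

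Within lane 3, 2 genes of complex IV rose with enrichment. Cox7b rose by a log2 fold change of 0.30 (SE 0.07, adjusted p = 0.0392) and Cox5a by 0.34 (SE 0.09, adjusted p = 0.0464; edgeR quasi-likelihood test, Benjamini-Hochberg adjusted, 2 libraries against 2). They were 2 of 43 genes tested, where 658 of 16199 genes passed (4.06%), 1.88% of all genes tested being higher. Counted in either direction, the share of the 43 genes past the threshold was thus near that of all genes tested. Cox7b lies on chromosome X from 106015700 to 106022450 (plus strand) and Cox5a on chromosome 9 from 57521274 to 57532426 (plus strand, mm10), where an exon of Gm26631 overlaps Cox5a on the other strand. Leaving out EE replicate 2 or SH replicate 3 ended both calls (adjusted p 0.0539 and 0.182 for Cox7b, 0.0702 and 0.156 for Cox5a). The call of Cox5a also ended without EE replicate 3 (0.237), with DESeq2 (0.0745), with library size alone (0.0522) and with offsets for transcript length and GC content (0.0590). Over the 11 alternatives run in lane 3, the adjusted p of Cox7b ranged over 0.00377 to 0.182 and that of Cox5a over 0.0305 to 0.237.

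Of the 43 genes, 42 had a positive log2 fold change in lane 3, the exception being Cox7a2l at −0.05 (SE 0.07). Positive values made up 49.2% of all genes tested. At an unadjusted p under 0.05 there were 15, all higher in EE, where 7.99% of all genes tested were higher and 8.29% lower. Of the 43, 24 had both EE libraries above both SH libraries, where 22.4% of all genes tested did, and none had both below, where 23.2% did. The median was 0.15 (all genes tested −0.0033), against 0.25 with all 6 libraries. It was 0.088 without SH replicate 3 and 0.22 without SH replicate 1. By complex the lane 3 medians were 0.11, 0.12, 0.22 and 0.17 for complexes II, III, IV and V. Uqcrh (0.29, SE 0.07, adjusted p = 0.0505) and Atp5g1 (0.31, SE 0.08, adjusted p = 0.0579) came next after the 2 genes that passed in the same edgeR test. Leaving out the lane 1 library alone, EE replicate 1, gave 3 genes past the threshold (Cox7b, Cox5a and Atp5g1), where 3.64% of all genes tested passed, and a median of 0.21.

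**Figure D4:**
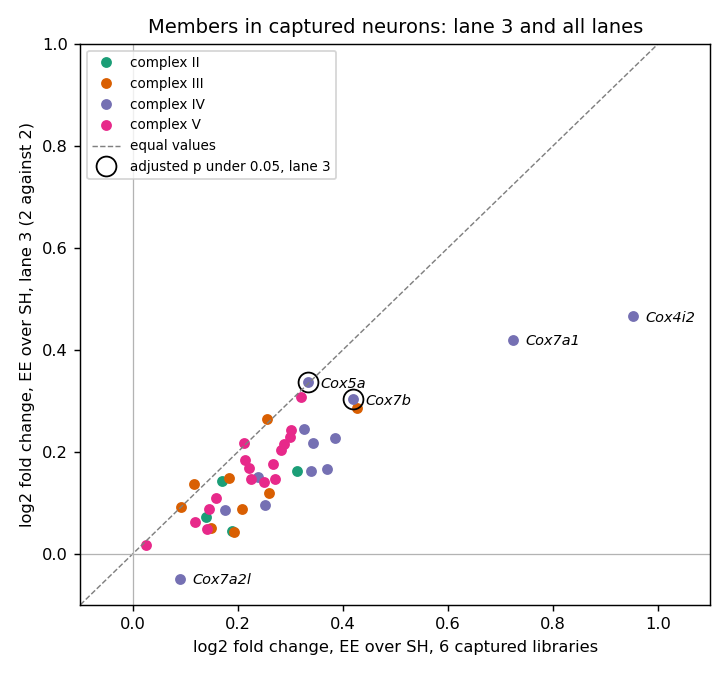
Log2 fold change of EE over SH in lane 3 (2 libraries against 2) against the same value over all 6 captured libraries, for 43 genes. Rings mark Cox5a and Cox7b, which passed the threshold in lane 3. Most points lie under the dashed line of equal values, and Cox7a2l is the 1 gene below 0 in lane 3.

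The difference of the housing effect between captured neurons and whole ganglia was tested over all 12 libraries. No gene of complexes II to V passed (0 of 45 tested, where 0 of 17412 passed, 0%), by the edgeR quasi-likelihood test, Benjamini-Hochberg adjusted. At an unadjusted p under 0.05 there were 16 genes with the larger effect in captured neurons and 1, Cox6a2, with the smaller, where 5.29% of all genes tested were on the higher side and 6.39% on the lower. The smallest p was that of Atp5g1 (log2 difference 0.39, SE 0.10, adjusted p = 0.208), followed by Cox7b (0.40, SE 0.11, adjusted p = 0.233) and Cox5a (0.32, SE 0.10, adjusted p = 0.260) in the same test. DESeq2 called 2, Cox7b (adjusted p = 0.0488) and Atp5g1 (adjusted p = 0.0282). The share of all genes that DESeq2 called is not given here, so its calls are not read as a result about these genes. Over the 14 alternatives run, the adjusted p ranged over 0.0488 to 0.480 for Cox7b and 0.0282 to 0.468 for Atp5g1. The median log2 difference was 0.24 (all genes tested −0.0089), and 44 of the 45 were positive, against 48.5% of all genes tested. Preparation, kit, lane and what the word Sham stands for cannot be told apart in this comparison.

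Several subunits of complexes IV and V have isoforms. Per kilobase of transcript in whole SH ganglia, Cox4i1 stood at 363 CPM and its partner Cox4i2 at 1.13 CPM, Cox6a1 at 443 CPM and Cox6a2 at 0.589 CPM, and Cox8a at 439 CPM and Cox8b at 0.992 CPM. Cox4i1 had 250, 307 and 281 CPM in whole EE ganglia, against 248, 301 and 285 CPM in whole SH ganglia, and Cox4i2, known from lung and from oxygen sensing cells, had 0.36, 0.997 and 1.06 CPM in EE, against 0.943, 0.938 and 0.603 CPM in SH. In captured neurons Cox4i1 had 150, 149 and 125 CPM in EE, against 127, 100 and 129 CPM in SH. Cox4i2 had the largest log2 fold change of the 43 in captured neurons, 0.95 (SE 0.46), at 1.05, 0.609 and 0.735 CPM in EE, against 0.302, 0.282 and 0.672 CPM in SH. It rested on 31, 12 and 16 reads in EE and 6, 6 and 13 reads in SH, the groups overlapped, and its unadjusted p was 0.0654 (edgeR quasi-likelihood test).

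The muscle isoform Cox6a2 was highest in the libraries richest in muscle genes, in both preparations. Cox6a2, the heart and muscle form of subunit VIa, had 0.101, 0.0508 and 0 CPM in captured EE libraries, against 0.0504, 1.13 and 0.0517 CPM in captured SH libraries. Only SH replicate 2, the library with 915 CPM of muscle genes, stood above the rest. In whole ganglia Cox6a2 had 0.0900, 1.53 and 0.734 CPM in EE, against 0.177, 0.289 and 0.737 CPM in SH, so that the 3 libraries rich in muscle genes were the 3 highest. The ubiquitous Cox6a1 had 30.6, 28.6 and 25.9 CPM in captured EE neurons, against 26.2, 24.1 and 25.1 CPM in captured SH neurons. Cox8b, another muscle isoform, had 0 CPM in all 3 captured EE libraries, against 0.101, 0.188 and 0 CPM in captured SH libraries, from at most 4 reads. Its ubiquitous partner Cox8a had 91.9, 81.4 and 79.1 CPM in captured EE libraries, against 76.8, 69.7 and 67.7 CPM in captured SH libraries (log2 fold change 0.24, SE 0.08).

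Cox7a1 had 1.42, 0.660 and 0.643 CPM in captured EE neurons, against 0.454, 0.706 and 0.517 CPM in captured SH neurons, so that EE replicate 1 and not SH replicate 2 was the highest. Cox7a2 had 61.4, 48.0 and 46.6 CPM in EE, against 44.2, 36.7 and 40.1 CPM in SH. Cox6b2, the testis partner of Cox6b1, had 0.507, 0.660 and 0.413 CPM in captured EE neurons, against 0.403, 0.188 and 0.103 CPM in captured SH neurons, and was too low to be tested there. The EE libraries lay above the SH libraries, at 2 to 15 reads each. The testis isoforms Cox7b2 and Cox8c stayed at or under 0.406 and 0.0517 CPM in every library. Of the 3 genes for the c subunit, which encode the same mature protein, the authors' FPKM in whole ganglia was highest for Atp5g3, at 127 ± 11.9 in EE and 136 ± 6.03 in SH (SD, n = 3 each). Atp5g2 stood at 60.6 ± 6.10 FPKM in EE and 63.4 ± 0.409 FPKM in SH, and Atp5g1 at 34.5 ± 3.30 FPKM in EE and 36.7 ± 0.354 FPKM in SH. Per kilobase of the longest coding transcript, which is 4715 bases for Atp5g1, the whole SH levels were 410 CPM for Atp5g3, 37.2 CPM for Atp5g2 and 38.4 CPM for Atp5g1, so the order of Atp5g1 and Atp5g2 depended on the length used. Atp5g3 had 50.8, 47.2 and 42.4 CPM in captured EE neurons, against 40.2, 42.7 and 44.1 CPM in captured SH neurons, and the groups overlapped. Atp5g2 had 4.43, 4.72 and 3.99 CPM in EE, against 4.59, 3.53 and 3.15 CPM in SH. The 3 genes thus had log2 fold changes of 0.32 (Atp5g1), 0.22 (Atp5g2) and 0.15 (Atp5g3), and the difference between them was not tested.

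In SH libraries, genes of complexes II to V took a smaller share of the counts in captured neurons than in whole ganglia. The summed level of the 50 genes was 4122 ± 321 CPM in captured neurons and 8005 ± 120 CPM in whole ganglia (SD, n = 3 each). Over the 43 genes tested in both, the median log2 ratio of captured over whole was −0.93, against −0.20 over all 14604 genes tested in both with a known length. Atp5k (subunit e of complex V) was 10.7-fold lower in captured neurons, Cox6a1 9.89-fold and Uqcr10 9.87-fold, while Sdha (1.09-fold), Uqcrb (1.07-fold) and Cox5b (1.12-fold) were slightly higher. No test was made, since the effect of the kit and that of capture cannot be told apart.

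The captured over whole ratio moved with transcript length and with GC content. Its Spearman correlation with the length of the longest coding transcript was 0.44 across the 43 genes and 0.52 across all 14604 genes, as a description across genes of the same libraries. With the GC content of that transcript it was −0.50 across the 43 genes and −0.52 across all 14604 genes. Genes under 500 bases had a median ratio of −2.44 for the 5 of complexes II to V and −1.11 for all 95, and genes of 2000 to 4000 bases had −0.47 for 4 and −0.31 for 5949. Atp5g1, with a transcript of 4715 bases, was an exception at −2.03.

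The housing difference in captured neurons also moved with length. Over the same 14604 genes, the Spearman correlation of the log2 fold change with length was −0.27, and it was −0.37 across the 43 genes. Among all genes of 500 to 1000 bases, the median log2 fold change of EE over SH in captured neurons was 0.14 (688 genes), and it was 0.27 for the 19 genes of complexes II to V of that length. At 1000 to 2000 bases the medians were 0.08 (2773 genes) and 0.19 (14 genes), and at 2000 to 4000 bases 0.01 (5949 genes) and 0.16 (4 genes). In whole ganglia the correlation with length was 0.10 across all genes and −0.21 across the 43. The correlation with GC content was 0.03 across all genes and −0.14 across the 43 in captured neurons. In whole ganglia it was −0.25 and −0.18. A fit with offsets for length and GC content per library called 0 of the 43 in captured neurons as well, with a median of 0.19 and 42 of the 43 positive.

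**Figure D5:**
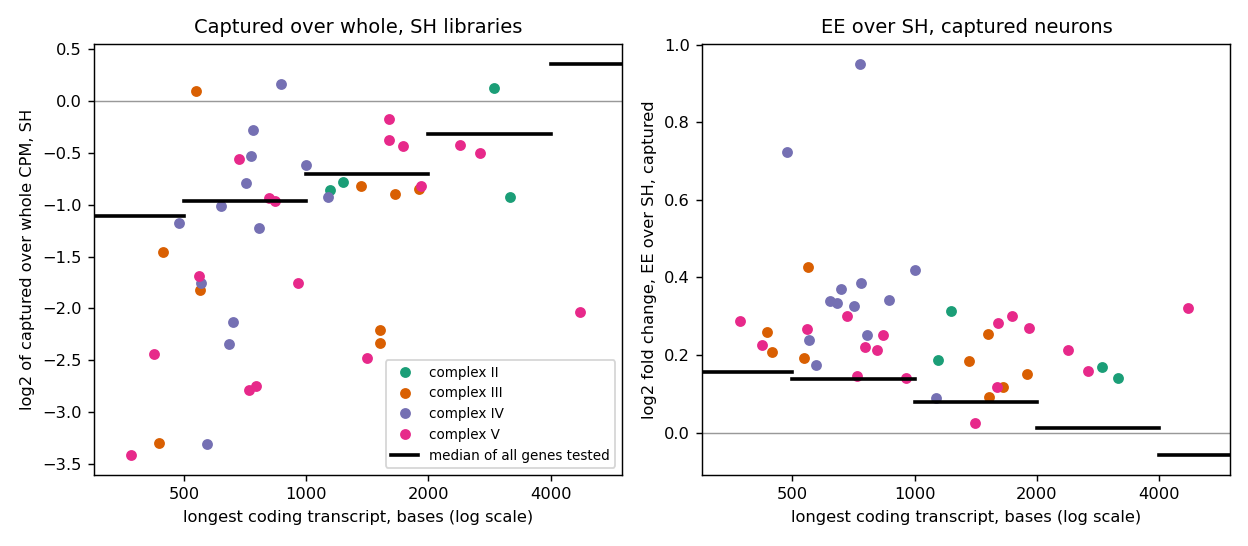
Left, log2 ratio of captured over whole CPM in SH libraries, and right, log2 fold change of EE over SH in captured neurons, each against the length of the longest coding transcript on a log axis. Points are 43 genes of complexes II to V, and black bars are medians of all genes tested in the same length range. Short genes lie lower on the left, and on the right most points lie above the bars.

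Other genes of oxidative phosphorylation gave a background for these values. The 36 subunits of complex I that were tested in captured neurons were all positive, with a median log2 fold change of 0.26 (0.17 in lane 3, 34 of 36 positive), and 0 passed with all libraries or in lane 3. Their smallest p was that of Ndufv2, an iron-sulfur subunit, at 161 ± 3.69 CPM in EE and 129 ± 11.1 CPM in SH (log2 fold change 0.33, SE 0.07, adjusted p = 0.121 by the edgeR quasi-likelihood test, Benjamini-Hochberg adjusted). The mitochondrially encoded subunits had a median of 0.06 in captured neurons (11 tested, 8 positive, 0 passed) and 0.15 in lane 3 (11 positive). In lane 3, mt-Cytb, the core of complex III, rose by 0.21 (SE 0.05, adjusted p = 0.0466 in the same test). It was 1 of the 11 to pass there, where 4.06% of all genes tested passed (1.88% higher). In whole ganglia the 10 tested had a median of 0.12, all 10 positive and 0 passed. The mitochondrially encoded subunits thus had a lower median than the nuclear ones of complexes II to V with all 6 captured libraries, the same median of 0.15 within lane 3, and a higher one in whole ganglia. None of these differences was tested.

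Assembly factors of complexes II to V had a median log2 fold change of 0.15 in captured neurons (29 tested, 21 positive, 0 passed) and 0.10 in lane 3 (28 tested, 0 passed). The gene with the smallest p in lane 3 was Atpaf1, a chaperone of the F1 part of complex V (0.30, SE 0.08, adjusted p = 0.0671 by the edgeR quasi-likelihood test, Benjamini-Hochberg adjusted). Cytochrome c and the regulators of mitochondrial genes had a median of 0.01 in captured neurons (13 tested, 0 passed) and 0.05 in lane 3. In lane 3, where 4.06% of all genes tested passed (1.88% higher), 2 of the 13 passed. These were Esrrg, an orphan nuclear receptor that drives oxidative metabolism (0.74, SE 0.10, adjusted p = 0.00104), and Ppargc1a, the coactivator PGC-1 alpha (0.30, SE 0.08, adjusted p = 0.0426), by the same test. Esrrg averaged 64.3 ± 22.8 CPM in captured EE libraries and 41.3 ± 9.97 CPM in captured SH libraries (SD, n = 3 each). With all captured libraries its adjusted p was 0.257 in the same test.

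Markers of neuron classes and of satellite glia also differed between the captured groups within lane 3, where 4.06% of all genes tested passed (1.88% higher). With all 6 libraries 0 of the large-neuron, 0 of the nociceptor and 1 of the satellite glia markers passed. The 15 markers of large-diameter neurons summed to 12302, 16151 and 16507 CPM in EE libraries, against 11244, 10149 and 12091 CPM in SH libraries, and in lane 3 the test called 9 of them higher and 1 lower. The 15 markers of nociceptors, the small neurons for pain and itch, summed to 3894, 3092 and 3256 CPM in EE, against 4208, 4740 and 3959 CPM in SH, and 11 were called lower in lane 3. The 8 markers of satellite glia, cells that wrap the neurons, summed to 2982, 3289 and 3215 CPM in EE, against 2720, 2401 and 2682 CPM in SH, and 3 were called higher in lane 3. No marker of these 3 lists was at 0 in a captured library. Markers of myelinating Schwann cells, another kind of glia, summed to 821, 1019 and 1013 CPM in EE, against 1143, 931 and 1065 CPM in SH. In lane 3, 0 of these 7 markers passed. The library highest in complexes II to V, EE replicate 1, was not the highest in summed large-neuron markers. In it, 8 of the 15 markers lay above the SH mean. Nefh, the heavy neurofilament, had 1982, 3246 and 3372 CPM in EE libraries, against 1902, 1681 and 2145 CPM in SH libraries. Pvalb, a calcium buffer of proprioceptors, had 27.8, 83.9 and 78.4 CPM in EE, against 34.0, 36.3 and 36.0 CPM in SH. Nefl, another neurofilament, had 5353, 6458 and 6596 CPM in EE, against 4662, 3849 and 4767 CPM in SH, so EE replicate 1 lay above every SH library there. The part of neuron and glia composition in the values of complexes II to V was not tested.

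The genes of complexes II to V moved together between libraries. Across the 6 captured libraries the median pairwise correlation (Pearson r of log2 CPM, 903 pairs of 43 genes) was 0.78, and 98.3% of pairs were positive. Across the 6 whole-ganglion libraries it was 0.48 (946 pairs of 44 genes), and 81.3% of pairs were positive. These correlations describe genes that share libraries, depth and scaling, and in captured neurons they hold the difference between housings too.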

How the data were processed

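The series holds 12 libraries in 4 groups of 3. The authors deposited whole-number counts of reads per gene for each preparation; HTSeq 0.6.0, TopHat2 2.0.12, Bowtie2 2.2.3 and the build mm10 are named, without roles, per the submitters' processing notes. FPKM values of whole ganglia were computed by the authors, per the file headers. The deposited second table of captured neurons carries the same label but equals the counts times 1 constant per library, so it was read as a signal not divided by length. The 5 summary lines of each count table, such as reads in no feature, were left out.

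The members and gene lists were chosen with earlier results of these data known. Genes named in each comparison are those past the threshold or else the 2 with the smallest p of each complex, the isoform pairs, the highest gene per length of each complex and up to 3 genes of each comparison list. Counts were filtered (filterByExpr), scaled by TMM and tested over all genes of a preparation with edgeR 4.0.16 (quasi-likelihood, Benjamini-Hochberg threshold 0.05) in R 4.3.3. The same test was made within lane 3 and, as housing by preparation, over 12 libraries, and the procedure was tested on simulated data. CPM are TMM-scaled. Alternatives used DESeq2 1.42.0, limma 3.58.1, other scalings and filters, offsets for length and GC content (splines with 4 degrees of freedom) and each library left out. Lengths and positions came from GENCODE on mm10, copies from blastn 2.17.0 (hits of at least 100 bases) and promoters from RefSeq. The biological coefficient of variation was 0.0741 in whole ganglia and 0.121 in captured neurons. With 3 libraries against 3, an exact permutation test cannot give a p below 0.100, so none was used.

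Same-numbered whole-ganglion libraries shared a lane, which is where their pairing comes from. The departures of paired libraries from their group's mean had correlations of 0.333, 0.160 and 0.0736. Those of EE and SH libraries with different numbers ranged over −0.344 to 0.189, so they overlapped those of the pairs. Captured libraries share only a number (0.110, −0.0435 and 0.145, against −0.187 to 0.0762 with different numbers).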

Additional observations from a re-analysis of the deposited data

How the results depend on the processing

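In whole ganglia 0 genes of complexes II to V passed under all 17 alternatives, and the median log2 fold change stayed between −0.049 and 0.048. Among the 8 genes of whole ganglia followed singly under each alternative, the sign of 2 turned without EE replicate 1: Sdhd ranged over −0.095 to 0.0020 and Cox7c over −0.23 to 0.027 with 1 library left out, the positive values being those without EE replicate 1, and the cause was not tested.

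In captured neurons the number past the threshold was 0. It was 14 without the filter on low counts, 11 with DESeq2 and 1 at an adjusted p under 0.1 (Cox7b). It was 2 in lane 3 alone, and 0 to 3 with 1 library left out (3 without EE replicate 1). Of all genes tested, 0.0185% passed with all 6 libraries, 4.06% in lane 3 and 3.64% without EE replicate 1. The median log2 fold change was 0.25, against 0.15 in lane 3 alone, which holds fewer samples and where it ranged over 0.088 to 0.22 with 1 library left out. In lane 3 the number was 2, against 4 with DESeq2 size factors and 1 with library size alone. It was 5 at an average log2 CPM of at least 3 and 7 at an adjusted p under 0.1. With 1 library of lane 3 left out, the lone library is assumed to vary like the others, and no count is given. The shares of all genes called under the other settings are not given here, so these counts are not read as a result about these genes. Housing by preparation gave 0, against 2 with DESeq2. The cause of these shifts was not tested.

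With the replicate block, 0 genes of complexes II to V passed in whole ganglia (all genes 32, against 1 without it) and 0 in captured neurons (all genes 0, against 3 without it); with length and GC offsets added, all genes passing numbered 25 in whole ganglia and 1 in captured neurons. The block changed no call of the named genes. Of the values of the genes followed singly under all alternatives, 426 kept their sign and their side of the threshold, 27 came to pass it, 8 no longer passed it and 2 turned sign.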
